A study of Mus musculus with 20 samples.

Results

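The CD11c+CD11b- cells of irradiated and untreated MC38-OVA tumours were compared. Members were the libraries labelled as this sorted population, which number 5 of the 20 libraries of the series: 1 from untreated tumours and 4 from tumours given 8 Gy. All mice were C57BL/6 and all carried MC38-OVA, a colon cancer line of mice that carries ovalbumin as a model antigen. The 4 irradiated groups received 8 Gy to the tumour on day 12, either alone, with an antibody against SIRPa (400 µg per dose), with an antibody against PD-1 (250 µg per dose), or with both. The untreated group received no antibody and is labelled untreated, while the series' design text speaks of sham irradiation. Tumours were taken on day 17, 5 days after irradiation, and each library pooled the leukocytes of 10 tumours, 1 per mouse, so that a treatment is 1 pool and has no replicate of its own. The untreated side thus has 1 library, and the spread in every test below is that among the 4 irradiated pools, which also differ in antibody. The sources used here give neither age nor sex of the mice. Total counts per library ranged from 22475552 (8 Gy with anti-PD-1) to 29981185 (untreated). Levels below are normalised CPM, counts scaled to a common library size,, always given in the order untreated, 8 Gy alone, 8 Gy with anti-SIRPa, 8 Gy with anti-PD-1, and 8 Gy with both antibodies.

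Within tumours, cells with surface CD11c and without CD11b include type 1 conventional dendritic cells (cDC1), which take up dying cells through receptors such as CLEC9A and present their antigens to CD8 T cells, and plasmacytoid dendritic cells, which sense nucleic acids through endosomal Toll-like receptors. On maturation, dendritic cells raise the costimulatory ligands CD80 and CD86 and the chemokine receptor CCR7, by which they move to lymph nodes. Peptides are shown to CD4 T cells on MHC class II, whose genes are switched on together by the coactivator CIITA at promoters that carry a shared set of short elements. Irradiation damages DNA, activates p53, and can start a type I interferon response through cytosolic DNA sensing.

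The MHC class II genes are shown first, since all 12 lay above the untreated library in all 4 irradiated ones. So did 29.9% of the 21046 genes tested, and all 14 cDC1 markers given below. Of the 12 genes of the class II list, 9 had a window in the RefSeq promoter table (GRCm38.p6), 250 bases before to 50 bases after the gene start. The motif searched was CTGATTGG, a Y box of class II promoters, on both strands. It was chosen after the values were seen. It was found in 4 of these 9 genes and in 4.1% of all 32851 windows of the table, which is a match of letters and not a measured site. The 4 windows, 5′ to 3′ on the strand of the gene, were those of H2-Aa at chr17:34287774-34288073 (minus strand), H2-Eb1 at chr17:34305617-34305916 (plus), H2-Oa at chr17:34092129-34092428 (plus) and H2-Eb2 at chr17:34325425-34325724 (plus), with the motif in capitals.
H2-Aa: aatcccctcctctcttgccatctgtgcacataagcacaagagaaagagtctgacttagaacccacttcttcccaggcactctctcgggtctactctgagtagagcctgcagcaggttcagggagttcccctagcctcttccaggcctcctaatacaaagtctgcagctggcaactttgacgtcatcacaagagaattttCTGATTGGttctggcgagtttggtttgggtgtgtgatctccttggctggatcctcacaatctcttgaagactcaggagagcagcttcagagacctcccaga
H2-Eb1: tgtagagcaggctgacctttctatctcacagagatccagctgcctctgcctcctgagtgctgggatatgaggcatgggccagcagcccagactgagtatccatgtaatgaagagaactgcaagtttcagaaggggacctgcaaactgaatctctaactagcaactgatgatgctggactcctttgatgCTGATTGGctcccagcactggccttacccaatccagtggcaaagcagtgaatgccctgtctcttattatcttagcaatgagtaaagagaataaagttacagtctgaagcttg
H2-Oa: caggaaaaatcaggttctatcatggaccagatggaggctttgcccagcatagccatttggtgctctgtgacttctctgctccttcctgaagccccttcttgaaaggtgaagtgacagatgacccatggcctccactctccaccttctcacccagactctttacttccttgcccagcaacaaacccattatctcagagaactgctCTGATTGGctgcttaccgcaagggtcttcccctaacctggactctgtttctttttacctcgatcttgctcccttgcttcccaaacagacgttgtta
H2-Eb2: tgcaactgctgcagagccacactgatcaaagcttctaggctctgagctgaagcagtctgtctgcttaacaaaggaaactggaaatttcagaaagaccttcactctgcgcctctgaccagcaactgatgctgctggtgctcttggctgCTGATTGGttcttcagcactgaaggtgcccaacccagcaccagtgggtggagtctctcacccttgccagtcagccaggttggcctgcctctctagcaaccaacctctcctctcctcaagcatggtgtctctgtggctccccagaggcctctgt
The motif began 51 bases before the start of H2-Aa, 62 before that of H2-Eb1, 46 before that of H2-Oa and 103 before that of H2-Eb2.

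The label was checked against the sort markers and the markers of other cells. Itgax, which encodes CD11c, was at 292, 365, 275, 418 and 349 CPM. Itgam, which encodes CD11b, was at 108, 123, 78.2, 61.4 and 69.3 CPM, and on a scale common to the 15 myeloid libraries it was at 57.3 to 117 CPM here against 1252 to 1658 in CD11c+CD11b+ cells. Dendritic cell markers were present in all 5 libraries. Markers of NK cells, which can carry CD11c, were also present in every one, with 8 markers summing to 1148, 1261, 1550, 1191 and 1452 CPM, and Ncr1, an NK cell activating receptor, at 226, 280, 311, 255 and 293 CPM. The T cell receptor chain Cd3g was at 6.02 CPM in the untreated library and 11.4 to 14.3 in the irradiated ones. Collagens and other fibroblast or tumour cell genes were abundant in the untreated library. Genes of that list summed to 7525, 1185, 1893, 640 and 620 CPM. The labelled cell type is thus mixed with other transcripts in these pools, and more so with matrix genes in the untreated one.

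The quasi-likelihood F-test of edgeR was run on 21046 genes, of which 4 passed the adjusted limit of 0.05 (0.019%), 1 higher and 3 lower in the irradiated libraries, and 4745 had an unadjusted p under 0.05. Nav3, Rnf150 and Calcrl fell and the antisense gene B930036N10Rik rose. The number of calls changed on leaving out any 1 irradiated library, and with the method. Without the library given 8 Gy and anti-SIRPa, 3059 genes passed (1412 higher, 6.77% of the 20864 tested, and 1647 lower, 7.89%), and these included all 4. Without any other irradiated library none passed, with 3529 to 4208 genes at an unadjusted p under 0.05. DESeq2 on the same 5 libraries called 2694 genes, again with all 4 among them.

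Nav3, which encodes a neuron navigator that binds the cytoskeleton, was at 73.3 CPM in the untreated library and at 0.972, 1.77, 0.710 and 0.669 in the irradiated ones. All 4 irradiated libraries were at less than 2 CPM, a log2 fold change of -6.14 ± 0.41 (SE, 4 irradiated against 1 untreated library, edgeR adjusted p = 0.0393). Rnf150, which encodes a membrane protein with a RING finger, was at 58.5 CPM untreated and 13.4, 13.4, 14.7 and 14.5 irradiated (log2 fold change -2.06 ± 0.15, edgeR adjusted p = 0.0428). Its 4 irradiated values were close together and far from the untreated one.

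Calcrl encodes the receptor that binds adrenomedullin or calcitonin gene-related peptide according to which RAMP protein it pairs with. It was at 57.7, 10.5, 12.2, 9.10 and 11.3 CPM, with no overlap between the irradiated and the untreated values (log2 fold change -2.42 ± 0.19, edgeR adjusted p = 0.0488). Leaving out 1 irradiated library moved its adjusted p to between 0.003 and 0.236. Calcrl is also one of 8 endothelial markers, whose sum was 208, 256, 240.5, 274 and 243 CPM. Of these 8, 3 lay above the untreated library in all 4 irradiated ones (Pecam1, Cdh5 and Kdr) and 4 below it (Calcrl, Ramp2, Plvap and Esam), with a median of -0.88. Pecam1 was at 119, 163, 186, 166 and 164 CPM, Cdh5 at 5.95, 23.9, 12.7, 30.1 and 19.4, and Plvap at 4.67, 1.71, 2.73, 1.38 and 2.32. The part of endothelial transcripts in the fall of Calcrl was not tested. Its partners and ligand follow, of which Ramp1 and Ramp3 were added after their values were seen. Ramp2, which makes the adrenomedullin receptor, was at 10.96, 1.13, 5.603, 0.355 and 0.551 CPM, and the ligand gene Adm was at 12.9, 4.86, 6.18, 2.35 and 3.42. Ramp3, which also pairs with Calcrl for adrenomedullin, lay the other way at 4.57, 36.03, 18.2, 56.3 and 42.2 CPM, and Ramp1 was at 2.94, 7.70, 4.18, 9.37 and 5.82. None of these 4 passed, with edgeR adjusted p between 0.0903 for Ramp3 and 0.273 for Ramp2. Calcrl is on chromosome 2 (84330626 to 84425411, GRCm38), Nav3 on chromosome 10 (109681259 to 110456204) and Rnf150 on chromosome 8 (82863356 to 83091268).

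B930036N10Rik, which falls outside the naming rule as a predicted transcript and is named for its call alone, had no count in the untreated library and 10.3, 9.94, 8.97 and 12.98 CPM in the irradiated ones. Against a floor of 3 counts in the untreated library it was at least 88.4-fold higher (edgeR adjusted p = 0.0393). It overlaps Alyref2 on the opposite strand, and no source used here says whether counting used strand, so its reads cannot be told from those of Alyref2. A second gene with no count on one side was Qser1, at 56.7 CPM untreated and 0 in all 4 irradiated libraries, at least 426-fold lower against 3 counts per library (edgeR adjusted p = 0.0716). In CD11c+CD11b+ cells Qser1 was at 0 in the untreated library and that with anti-SIRPa and at 43.2 to 46.7 CPM in the others. In CD11c-CD11b+ cells it was at 62.9 CPM untreated and 0 in all 4 irradiated libraries. The assigned count thus differed between sorted populations of the same pool.

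**Figure D1:**
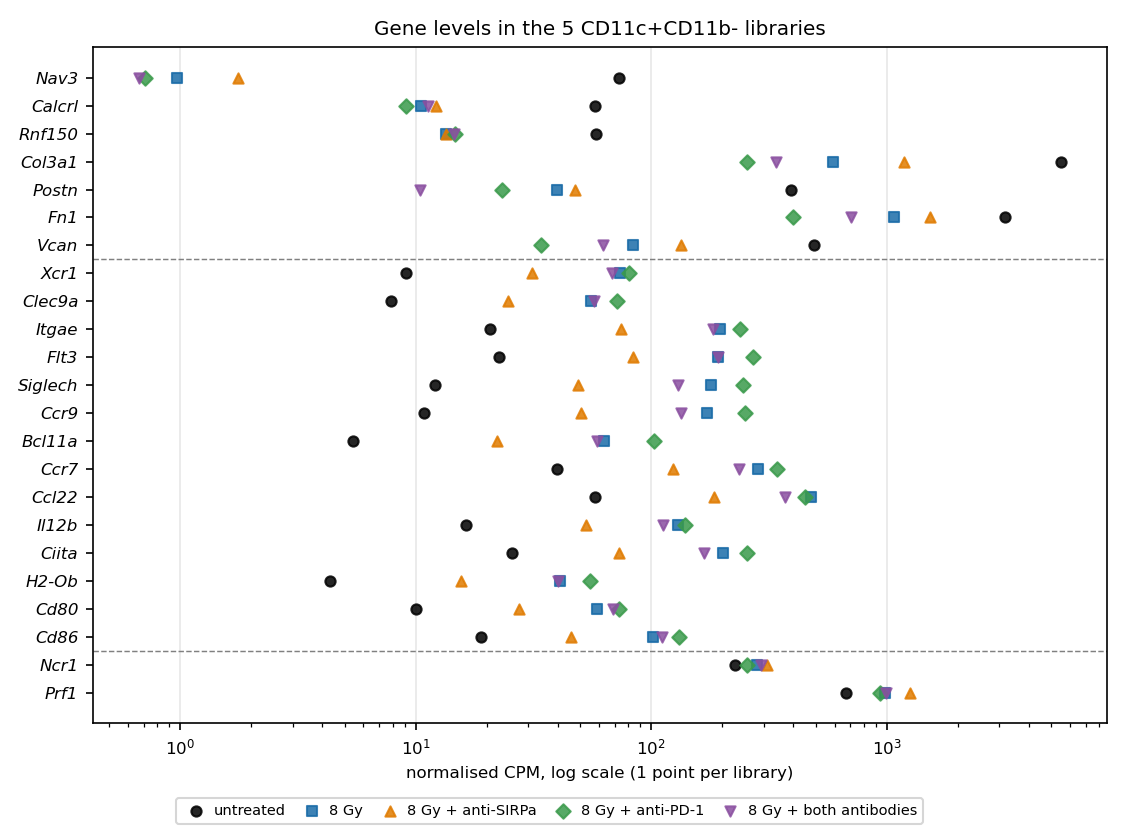
Normalised CPM (log axis) of 23 genes in the 5 CD11c+CD11b- libraries, 1 point per library. Genes above the upper dashed line were lower in all 4 irradiated libraries, genes between the lines were higher in all 4, and Ncr1 and Prf1 below stand for NK cells. In every row of the middle group the library with anti-SIRPa lies between the untreated library and the other irradiated ones.

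To describe size without a test, genes were counted that lay at least 2-fold above or below the untreated library in all 4 irradiated libraries, among the 10361 genes at 10 CPM or more in the untreated or in all irradiated libraries. There were 176 above (1.7%) and 611 below (5.9%). For each gene list, the 2-fold counts below are out of its members at this CPM limit, while medians and counts of members above or below the untreated library are over all members tested. Members under the limit were not counted even where they lay more than 2-fold apart in all 4 libraries, as did Batf3, H2-Eb2, Tlr11 and Timd4, whose values are given below. Simply lying above the untreated library in all 4 was common, at 29.9% of genes tested, and lying below it at 31.1%. The median log2 fold change over all genes tested was 0.035. Among the 176 higher genes the library with anti-SIRPa was the lowest irradiated one in 164, and among the 611 lower genes it was the highest in 562, against 2946 and 3886 of all 10361 genes. Over genes at a mean of 10 CPM or more, its correlation with the untreated library (r = 0.931, across genes) was above that of the others (0.791 to 0.873). Its position between the untreated library and the rest is therefore given with each group below. For most of these genes, leaving it out removes the irradiated value nearest to the untreated one. That widens the fold change and narrows the spread. Adjusted p values and pass counts without it therefore show only how far calls depend on 1 library, and are no support for a change. In pooled bulk RNA, fewer cells of a type and less RNA per cell cannot be told apart.

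cDC1 markers were higher as a group after irradiation. All 14 lay above the untreated library in all 4 irradiated ones and 10 of the 13 at the CPM limit were at least 2-fold above. Their median log2 fold change was 2.76. Xcr1, the chemokine receptor by which cDC1 follow XCL1, was at 9.10, 73.4, 31.2, 80.3 and 68.1 CPM. Itgae, which encodes the integrin chain CD103, was at 20.7, 196, 74.5, 237 and 183 CPM. Both were lowest in the untreated library and next lowest with anti-SIRPa. The edgeR adjusted p was 0.0880 for Xcr1 (log2 fold change 2.80 ± 0.58) and 0.0916 for Itgae (3.06 ± 0.68), so neither passed. Without the anti-SIRPa library, the lowest irradiated one in all 14 cDC1 markers, these log2 fold changes became 3.03 and 3.32. Flt3, the receptor for the growth factor of dendritic cell precursors, was at 22.6, 193, 83.5, 270 and 192 CPM. Clec9a, the receptor for exposed actin of dead cells, was at 7.88, 55.3, 24.7, 71.3 and 57.1. Summed over the list, the irradiated libraries were at 4.19, 2.28, 5.05 and 4.05 times the untreated one.

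Most plasmacytoid dendritic cell markers lay higher. Of 13, 11 lay above the untreated library in all 4 irradiated ones, and 4 of the 9 at the CPM limit were at least 2-fold higher. The median log2 fold change was 3.07. Siglech, a surface lectin of these cells, was at 12.1, 180, 48.9, 246 and 129 CPM, which is a log2 fold change of 3.64 ± 0.95 (edgeR adjusted p = 0.103, and 0.00362 without the anti-SIRPa library). Ccr9, a receptor that guides these cells to the gut, was at 10.8, 172, 50.1, 250.6 and 134 CPM. Klk1, a kallikrein protease, was at 2.60, 60.1, 16.4, 86.7 and 49.5. Tcf4, which encodes the factor that sets plasmacytoid fate and which is named here after its values were seen, was at 318, 203, 164, 277 and 222 CPM, below the untreated library throughout. The summed list, in which Tcf4 is an abundant member, was at 1.9, 0.998, 2.52 and 1.62 times the untreated library.

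Markers of mature dendritic cells lay higher too, 8 of the 13 at the CPM limit at least 2-fold, with a median of 2.21 over all 15. Ccr7 was at 39.6, 283, 124, 343 and 236 CPM (log2 fold change 2.63 ± 0.58, edgeR adjusted p = 0.0912). Il12b, the shared subunit of interleukins 12 and 23, was at 16.3, 130, 52.9, 139 and 113 CPM. The CCR4 ligands Ccl22 and Ccl17 were at 58.0, 475, 184, 449 and 370, and at 6.02, 54.1, 14.3, 36.3 and 40.1 CPM. In each of these 4 genes every irradiated library lay above the untreated one. Without the anti-SIRPa library the median log2 fold change of the 15 was 2.44.

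Costimulatory genes followed the same order of libraries. Of 12 listed, 11 were tested, and 6 of the 9 at the CPM limit were at least 2-fold higher in all 4, with a median of 2.29. Cd80 was at 10.1, 59.1, 27.4, 72.7 and 68.6 CPM (log2 fold change 2.50 ± 0.59, edgeR adjusted p = 0.0941, and 0.003 without the anti-SIRPa library). Cd86 was at 19.0, 102, 45.7, 131 and 111 CPM (2.36 ± 0.59, edgeR adjusted p = 0.0998, and 0.0031 without it). Cd40, the receptor through which helper T cells license dendritic cells, was at 5.92, 38.6, 13.7, 36.7 and 33.0 CPM. Pdcd1lg2, which encodes the PD-1 ligand PD-L2, was at 9.88, 52.4, 30.2, 62.2 and 54.4 CPM, and Cd274, for PD-L1, at 80.2, 220, 140, 279 and 233.

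Of 5 genes for the antibody targets and their ligands, 4 lay above the untreated library in all 4 irradiated ones and 0 lay below it in all 4. Pdcd1, which encodes PD-1, was at 4.74, 15.4, 14.5, 18.8 and 21.4 CPM (log2 fold change 1.89 ± 0.31, edgeR adjusted p = 0.0822). Sirpa was at 108, 166, 87.8, 129 and 103 CPM, so that its irradiated values lay on both sides of the untreated one (0.17 ± 0.33, edgeR adjusted p = 0.808), and without the library given 8 Gy alone the log2 fold change was -0.017. Cd47, which encodes the ligand of SIRPa, was at 505, 696, 632, 702 and 712 CPM.

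All 12 genes of MHC class II presentation lay above the untreated library in all 4 irradiated ones, 6 of the 11 at the CPM limit at least 2-fold, with a median of 2.25. Ciita was at 25.6, 202, 72.6, 256 and 167 CPM (log2 fold change 2.77 ± 0.71, edgeR adjusted p = 0.101, and 0.0031 without the anti-SIRPa library). H2-Ob, a chain of the inhibitor of peptide loading, was at 4.33, 40.9, 15.6, 55.2 and 40.4 CPM. H2-Aa and H2-Eb1, whose promoters are printed above and which were picked for that, were at 260, 1405, 518, 1645 and 1186, and at 223, 1220, 446, 1467 and 1031 CPM. H2-Oa was at 3.99, 25.3, 11.8, 29.1 and 17.6, and H2-Eb2, a low class II beta chain, at 1.22, 12.9, 4.53, 16.3 and 10.7. The ratio of summed class II to summed cDC1 CPM was 1.92, 2.11, 1.51, 2.01 and 1.80, with the lowest ratio in the anti-SIRPa library. For the costimulatory, mature dendritic cell and plasmacytoid lists, the ratio of sums was lower in every irradiated library than in the untreated one. It was 0.606, 0.300, 0.413, 0.265 and 0.307 for costimulatory genes. For mature dendritic cell markers it was 1.003, 0.721, 0.717, 0.701 and 0.684, and for plasmacytoid markers 0.7405, 0.3365, 0.3245, 0.370 and 0.297. These sums are weighted to abundant members, such as Tcf4 with 318 of the 704 CPM of the untreated plasmacytoid sum. By member, the plasmacytoid median log2 fold change (3.07) lay above that of cDC1 markers (2.76). Those of the costimulatory (2.29) and mature (2.21) lists lay below it. Without the anti-SIRPa library the median log2 fold change of the 12 class II genes was 2.51.

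Markers of other dendritic cells and factors of the lineage were mixed. Of the 7 cDC2 markers at the CPM limit, 4 were at least 2-fold higher and 1 lower, with a median of 2.10. The sum over all 9 was 665.2, 666.8, 383.7, 539.5 and 465 CPM, in which Klf4, Sirpa and Itgam are abundant members. Clec10a, a lectin of cDC2, was at 4.16, 49.6, 13.01, 59.4 and 32.5 CPM. Among 15 transcription factors at the limit 3 were 2-fold higher and 1 lower, with a median of 0.80. Bcl11a, needed for plasmacytoid and lymphoid cells, was at 5.41, 63.3, 22.2, 103 and 58.7 CPM, and Batf3, needed for cDC1, at 2.77, 15.4, 6.45, 18.7 and 12.3. The surface genes Cd8a and Cd8b1 were at 3.79, 28.6, 29.7, 42.0 and 28.7, and at 3.04, 35.3, 20.0, 48.4 and 28.3 CPM. Both are on the list of 12 T cell markers, of which 3 of the 6 at the limit were at least 2-fold higher (Cd4 was the other) with a median of 1.01 and a sum of 464.5, 584, 622, 590 and 533 CPM. Their part in the result was not tested.

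Among the 8 genes that the naming rule took by size, Sept3, a septin, was furthest from the untreated value at 1.83, 97.6, 24.4, 130 and 98.8 CPM (log2 fold change 5.58 ± 1.14, edgeR adjusted p = 0.0874). Plet1, a surface protein of progenitors and some dendritic cells, was at 12.4, 189, 54.1, 185 and 153 CPM, and Fcrla, an Fc receptor-like protein, at 2.50, 39.3, 10.98, 52.97 and 25.9. None of the 8 passed with all libraries.

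**Figure D2:**
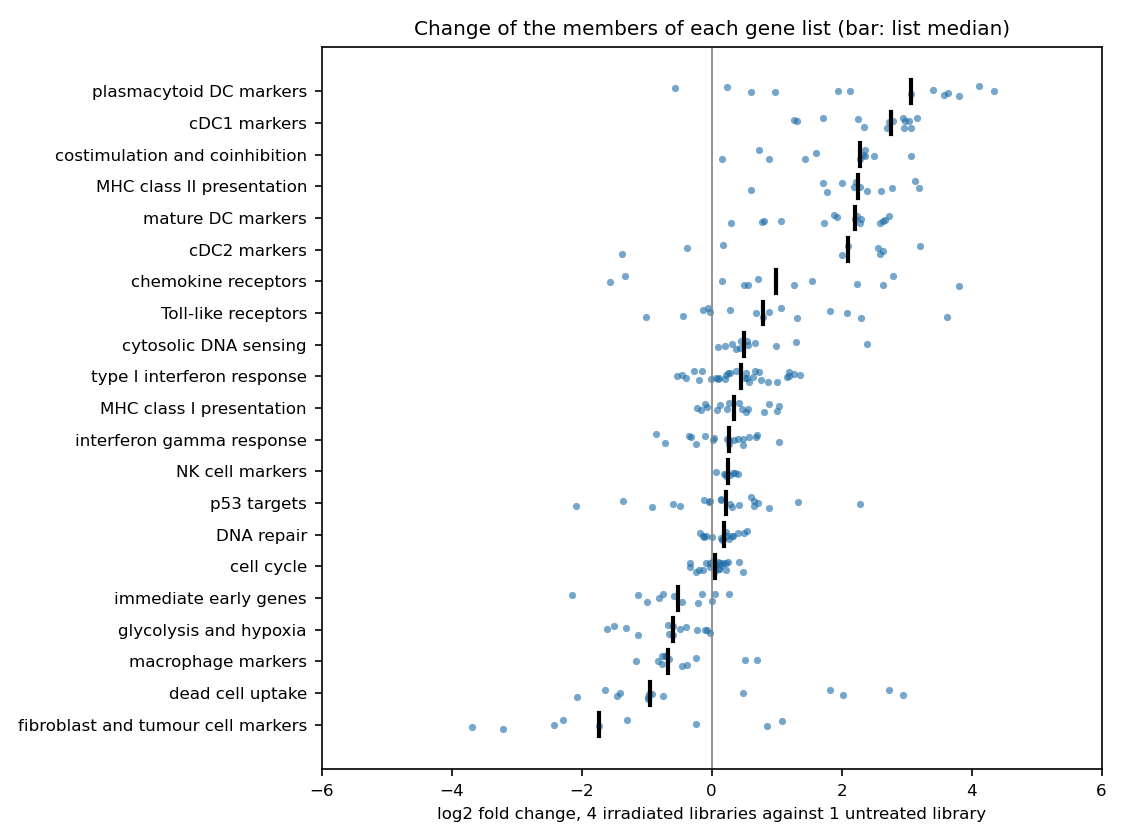
Log2 fold change of the members of 21 gene lists, with 4 irradiated libraries against 1 untreated library. Each point is a gene and the bar is the list median. Dendritic cell, costimulation and class II lists have medians above 2, NK cell, DNA repair and cell cycle lists lie near 0, and fibroblast genes lie at -1.73, and 1 gene (Ido1) with no untreated count lies beyond the axis.

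Fibroblast and tumour cell genes lay lowest. Of the 7 at the CPM limit, 5 were at least 2-fold lower in all 4 libraries, with a median of -1.73. Of the 9 tested, 6 lay below the untreated library in all 4 and 1 lay above it. Col3a1, a fibrillar collagen, was at 5488, 592, 1188, 254 and 338 CPM (log2 fold change -3.21 ± 0.67, edgeR adjusted p = 0.0882, and 0.0033 without the anti-SIRPa library). Postn, which encodes the matrix protein periostin, was at 392, 39.7, 47.7, 23.3 and 10.4 CPM. The untreated library was the highest and that with anti-SIRPa the next in both. Igf2, a growth factor that is on none of the lists, was at 16.8, 0, 0.269, 0 and 0 CPM. On the scale of the 15 myeloid libraries it was at 14.7 CPM untreated and 0 to 0.211 irradiated in CD11c+CD11b+ cells. In CD11c-CD11b+ cells it was at 14.0 untreated and 0 to 0.504 irradiated, so this fall was shared. Vcan and Fn1, matrix genes on the monocyte list, were at 490, 83.4, 133, 33.9 and 62.6, and at 3178, 1072, 1524, 399 and 703 CPM. Summed fibroblast CPM per summed NK marker CPM was 6.56, 0.94, 1.22, 0.54 and 0.43, while summed cDC1 CPM per NK CPM was 0.828, 3.16, 1.40, 4.03 and 2.65. Matrix genes were highest and cDC1 genes lowest in the untreated library, and the part of the matrix transcripts in the other differences was not tested.

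Macrophage markers had a median of -0.68, with none of 12 at 2-fold in all 4. Mrc1, the mannose receptor, was at 56.4, 33.7, 26.6, 17.2 and 23.1 CPM and Apoe, a lipid carrier, at 565, 469, 371, 216 and 281. The monocyte list was split, with 4 of 8 above the untreated library in all 4 irradiated ones and 4 below, and a median of -0.17. Its sum was 4386, 2812, 3065, 2160 and 2408 CPM. Ly6c2, one of the higher genes, was at 54.3, 314, 180, 319 and 263 CPM, while Vcan and Fn1 above were among the lower. NK cell markers were close to level, with a median of 0.25 and none of 8 at 2-fold. Cytotoxic effector genes had a median of 0.51, and Prf1, which encodes perforin, was at 668, 979, 1253, 940 and 995 CPM.

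**Figure D3:**
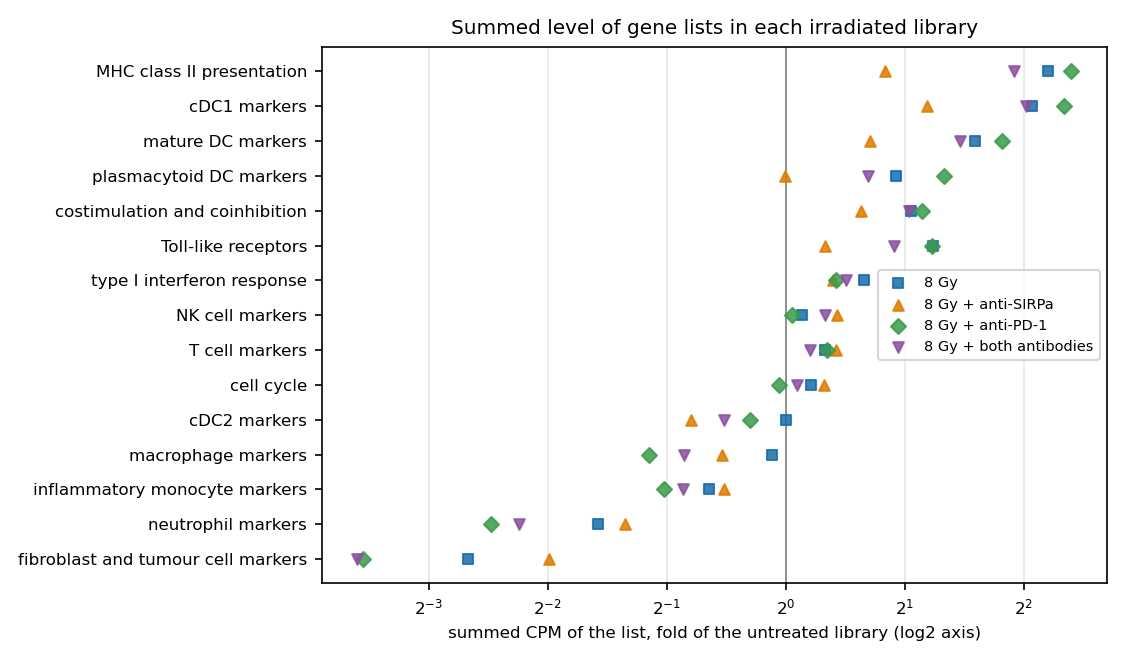
Summed CPM of 15 gene lists in each of the 4 irradiated CD11c+CD11b- libraries, as a fold of the untreated library on a log2 axis. Class II, cDC1 and mature dendritic cell sums are highest with anti-PD-1 and lowest with anti-SIRPa. Fibroblast sums are at 0.0824 to 0.252 of the untreated level.

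Of 30 type I interferon response genes, 1 was 2-fold higher in all 4 and 18 lay above the untreated library in all 4, with a median of 0.45. Mx1, an antiviral GTPase, was at 51.2, 134, 112, 133 and 145 CPM (log2 fold change 1.36 ± 0.18, edgeR adjusted p = 0.0822, and 0.0037 without the anti-SIRPa library). Irf7, the factor that amplifies interferon production, was at 152, 441, 282, 383 and 360 CPM. In both genes the anti-SIRPa library was the lowest irradiated one, by less than in the dendritic cell genes. Over the 30 genes, the lowest irradiated library was that with anti-PD-1 in 15 and that with anti-SIRPa in 12. Without the anti-SIRPa library the median log2 fold change of the 30 was 0.44. Interferon gamma response genes had a median of 0.27, with none of the 18 at the CPM limit at 2-fold, and Cxcl10, a chemokine for T cells, was at 158, 110, 110, 52.5 and 75.6 CPM. Ifng itself was at 56.7, 88.1, 112, 74.9 and 95.3 CPM.

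Genes of cytosolic DNA sensing had a median of 0.51. Trex1, the exonuclease that clears cytosolic DNA, was at 4.84, 47.0, 6.06, 30.3 and 18.2 CPM, close to the untreated value with anti-SIRPa. Samhd1, which limits nucleotide supply, was at 197, 539, 322, 568 and 499 CPM. Of the 10 genes of the Toll-like receptor list at the CPM limit 2 were 2-fold higher in all 4. Tlr9, which senses unmethylated DNA in endosomes, was at 20.3, 125, 49.5, 131 and 92.6 CPM, and Tlr7, which senses RNA there, at 12.95, 71.3, 23.5, 74.3 and 51.1. Tlr11, a receptor for microbial profilin, was at 1.32, 15.9, 7.48, 23.8 and 17.7 CPM.

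The p53 targets had a median of 0.22, with 1 of 18 at 2-fold higher and 1 lower. Cdkn1a, which encodes the cell cycle inhibitor p21, was at 63.1, 179, 111, 189 and 152 CPM (log2 fold change 1.32 ± 0.31, edgeR adjusted p = 0.0945, and 0.00442 without the anti-SIRPa library). Pmaip1, which encodes the death protein NOXA, was at 15.7, 81.8, 34.7, 101 and 89.1 CPM. Eda2r, a receptor gene also induced by p53, lay the other way at 25.7, 6.30, 11.2, 2.31 and 4.25. DNA repair and cell cycle genes had medians of 0.20 and 0.05, with none of 13 and none of 26 at 2-fold in all 4. Mki67, a marker of cycling cells, was at 513, 710, 752, 643 and 768 CPM.

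Immediate early genes lay lower, with a median of -0.51 and 1 of 12 at 2-fold. That one was Egr1, at 1123, 259, 314, 226 and 216 CPM (log2 fold change -2.15 ± 0.20, edgeR adjusted p = 0.0716). Jun was at 1616, 769, 837, 704 and 625 CPM. Glycolysis and hypoxia genes had a median of -0.60, with 3 of 12 at 2-fold lower, and Vegfa, the vascular growth factor, was at 245, 114, 137, 95.8 and 98.4 CPM. Among the 11 genes for the uptake of dead cells at the CPM limit 3 were 2-fold lower and 2 higher. Pros1, a bridge to the TAM receptors, was at 44.8, 10.2, 13.4, 8.44 and 10.4 CPM (log2 fold change -2.08 ± 0.24, edgeR adjusted p = 0.0777), whereas Timd4, a receptor for phosphatidylserine, was at 2.33, 24.9, 6.79, 22.4 and 17.98. The factor Klf4, on both the cDC2 and the factor lists and named after its values were seen, was at 424, 184, 161, 159 and 150 CPM.

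The other lists are given by their counts. MHC class I presentation genes had a median of 0.35 with none of 16 at 2-fold, and Nlrc5, the class I coactivator, was at 219, 425, 355, 535 and 494 CPM. Of 7 neutrophil markers tested 1 was at the CPM limit and it was 2-fold lower, Mmp9, a protease, at 120, 30.4, 37.3, 14.3 and 17.6 CPM, and the list median was -1.66. Mast cell and basophil markers had a median of -1.08 over 7 tested, with 1 of the 3 at the CPM limit higher (Kit) and 1 lower (Gata2). B cell and plasma cell markers had a median of -0.15, and none of the 7 tested reached the CPM limit. Among chemokine receptors 4 of 10 were 2-fold higher and 1 lower, with a median of 1.00, and Cx3cr1, the fractalkine receptor, was the lower one at 62.0, 29.5, 25.9, 12.6 and 16.2 CPM. Chemokines had a median of 0.38 with 2 of 12 higher, the Ccl17 and Ccl22 given above. Cytokines of antigen-presenting cells had a median of 0.44 with 1 of 4 higher, and interferons and their receptors 0.63 with none of 6.

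Differences between the sorted populations were examined by testing the population by irradiation term, with the pool as a block, since the populations of a pool came from the same tumours. Against CD11c+CD11b+ cells of the same 5 pools, 219 of 22301 genes passed (edgeR, adjusted limit 0.05). In 183 the change with irradiation was the more positive one in CD11c+CD11b- cells (0.821%) and in 36 the more negative one (0.161%). Without the block 2 passed. Leaving out each irradiated pool gave 47 to 684, and the 684 came without the anti-SIRPa pool. Against CD11c-CD11b+ cells 2 of 22638 genes passed, both the more positive (0.00883%). There 0 passed without the block, with 1721 at an unadjusted p under 0.05, and 484 passed with DESeq2.

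The genes that differed from CD11c+CD11b+ cells included 5 of 14 cDC1 markers, 4 of 13 plasmacytoid markers, 8 of 15 mature dendritic cell markers, 5 of 9 cDC2 markers, 5 of 12 class II genes and 1 of 12 costimulatory genes. All of these were in the more positive direction. On the scale of the 15 myeloid libraries, Itgae was at 18.4, 187, 71.0, 221 and 174 CPM here and at 16.4, 12.4, 6.19, 10.9 and 11.1 in CD11c+CD11b+ cells, a difference in log2 fold change of 3.79 ± 0.29 (edgeR adjusted p = 0.00665). The 2 untreated libraries were close and only the irradiated ones apart. Flt3 was at 29.6, 24.6, 9.43, 37.7 and 33.0 CPM in CD11c+CD11b+ cells (difference 3.36 ± 0.23), Ccr7 at 79.7, 92.0, 32.0, 105 and 115 (2.69 ± 0.31), and Ciita at 176, 223, 111, 236 and 237 (2.60 ± 0.28). In these 3 genes the anti-SIRPa pool was the lowest of its population there too. Summed cDC1 markers of CD11c+CD11b+ cells were at 1003, 1590, 1159, 1528 and 1659 CPM, with the anti-SIRPa pool lowest among irradiated ones. Cd80 was at 49.4, 62.9, 42.5, 80.5 and 68.5 CPM in CD11c+CD11b+ cells, against 8.93, 56.2, 26.1, 67.9 and 65.4 here, so it differed mainly in the untreated library (2.19 ± 0.26, edgeR adjusted p = 0.0233).

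By size of difference from CD11c+CD11b+ cells the leading genes were Sept3 (5.28 ± 0.67 on the log2 scale), Cd24a (4.18 ± 0.57), Bcl11a (4.16 ± 0.29), Smim5 (4.09 ± 0.39) and Btla (3.86 ± 0.28), with edgeR adjusted p from 0.005 to 0.0335. Cd24a, a surface glycoprotein of cDC1, was at 11.2, 122, 38.2, 134 and 130 CPM here and 88.9, 48.1, 34.3, 49.2 and 39.9 there. Btla, an inhibitory receptor, was at 5.17, 54.4, 21.1, 75.7 and 61.1 here and 6.80, 5.53, 2.40, 6.16 and 4.66 there. In the other direction Gbp6, an interferon-induced GTPase, was at 73.7, 82.4, 82.2, 74.5 and 82.4 CPM here and 38.3, 157, 127, 174 and 177 there, a difference of -1.91 ± 0.22 (edgeR adjusted p = 0.0219). Iigp1, a GTPase of the same response, differed by -1.75 ± 0.25 (edgeR adjusted p = 0.034). Rnf150 also differed, by -1.65 ± 0.18 (edgeR adjusted p = 0.0177), with 58.6 CPM untreated and 42.6 to 57.4 irradiated in CD11c+CD11b+ cells.

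Against CD11c-CD11b+ cells, Siglech differed by 5.65 ± 0.42 and Mycl by 5.00 ± 0.37 (edgeR adjusted p = 0.0334 for both). Siglech was at 10.8, 172, 46.6, 230 and 123 CPM here and at 0.91, 0.38, 0.12, 0.31 and 0.11 in CD11c-CD11b+ cells, where the values are a few counts. Mycl, a factor of the MYC family used by cDC1, was at 3.82, 46.5, 16.6, 60.1 and 38.3 here and at 1.80, 0.80, 0.27, 0.58 and 0.60 there.

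Other differences were shared. The fibroblast and tumour cell list had a median of -1.37 in CD11c+CD11b+ cells and -0.54 in CD11c-CD11b+ cells, and Col3a1 was at 3736 CPM untreated and 400 to 1245 irradiated in the former and at 4830 and 831 to 1991 in the latter. High collagen in the untreated pool thus occurred in all 3 myeloid sorts. No gene of this list passed the difference test in the more negative direction, and 1, Epcam, passed in the more positive direction against CD11c+CD11b+ cells. Calcrl was at 35.8, 17.8, 16.3, 12.4 and 15.7 CPM in CD11c+CD11b+ cells and at 32.7, 11.9, 13.1, 11.8 and 10.2 in CD11c-CD11b+ cells, and its difference did not pass against either (edgeR adjusted p = 0.0631 and 0.28). Type I interferon genes had larger medians in the other populations, 0.86 and 1.23 against 0.45 here, and 1 of 30, Ifi44, passed the difference test against CD11c+CD11b+ cells. The cDC1 list, with a median of 2.76 here, had -0.11 in CD11c+CD11b+ and 0.26 in CD11c-CD11b+ cells. Its summed CPM was still higher after irradiation in both, at 1003 untreated and 1159 to 1659 irradiated in the former. In the latter it was 569 untreated and 795 to 1282 irradiated. Xcr1 rose in both populations (log2 fold change 1.28 and 1.15), as did Cd86 (0.928 and 0.955), whereas Itgae fell in both (-0.71 and -1.33).

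**Figure D4:**
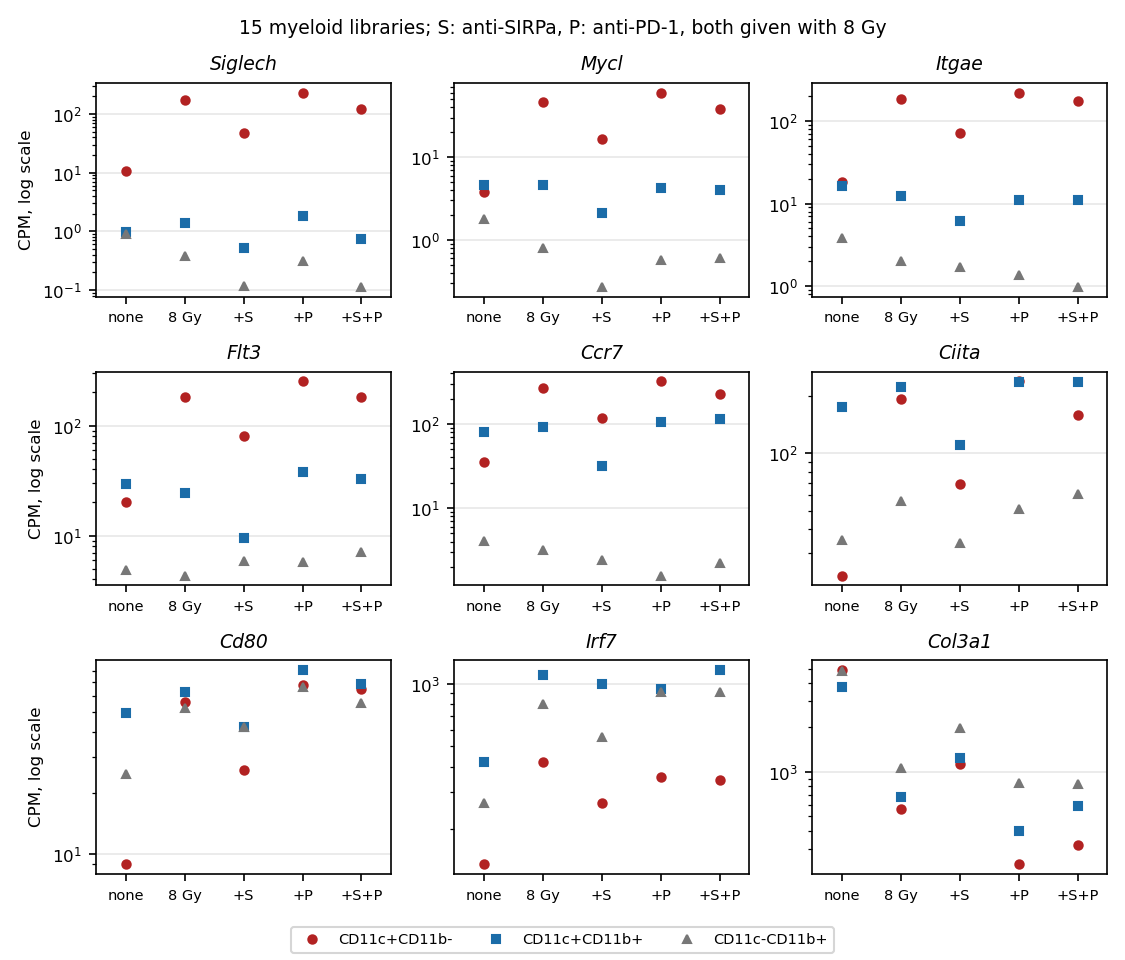
CPM (log axis, scaled over 15 myeloid libraries) of 9 genes in 3 sorted populations, 1 point per library, from untreated tumours and from tumours given 8 Gy with no antibody, anti-SIRPa, anti-PD-1 or both. Siglech, Mycl, Itgae and Flt3 are apart in irradiated CD11c+CD11b- cells, Irf7 is higher in irradiated libraries of all 3, and Col3a1 is highest in the untreated library of all 3.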

How the data were processed

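RNA-seq libraries of sorted tumour leukocytes were analysed from estimated counts per transcript, which the authors had deposited as whole numbers. The submitters' processing notes name FastQC 0.11.8, HISAT2, StringTie and edgeR 3.34.0, and the build GRCm38. No source used here gives the versions of HISAT2 and StringTie or a strand setting. Estimates of this kind divide reads between overlapping transcripts, so a count at 0 can be an assignment.

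Transcripts were summed to genes with GENCODE M21 (141469 of 142699 matched; the rest held at most 0.399% of a library). Genes were kept by filterByExpr (minimum count 10, minimum total 15), scaled by TMM and tested with edgeR 4.0.16 in R 4.3.3 (quasi-likelihood F-test, 3 residual degrees of freedom, Benjamini-Hochberg over all genes). Standard errors were derived from the F statistic and are approximate. Tests of the difference between populations had the pool as a term. The pairing comes from the labels, which place the populations of a treatment in the same pooled tumours. Same-pool deviations correlated across genes at 0.136 to 0.625 with CD11c+CD11b+ and at -0.095 to 0.481 with CD11c-CD11b+ cells. In 5 of these 8 values another pool correlated more strongly, at up to 0.406 and 0.464, so the pairing rests on the labels. The 2-fold counts used log2 CPM with a prior count of 2.

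The members and the 33 gene lists were chosen with earlier results of these data known. Named genes were the largest changes per direction, filled to 8 with genes at an unadjusted p under 0.01 where fewer than 4 passed, up to 4 members per list, the markers and antibody targets, and up to 5 genes per direction of each population test. Predicted genes were left out of the first and last. The class II motif, Ramp1, Ramp3, Tcf4, Klf4, H2-Aa, H2-Eb1, H2-Eb2, Plvap, Cdh5 and Pecam1 were chosen after values were seen. The interferon promoter motifs that had been planned were not run, since no interferon gene passed. The code was tested on simulated data. Alternatives were RLE scaling, no filter, DESeq2 1.42.0, antibody terms, all 15 myeloid libraries, no pool term, other prior counts, CPM limits and scaling by total count, and each irradiated pool left out. Promoter windows and figures used pandas and matplotlib in Python.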

Additional observations from a re-analysis of the deposited data

Results flagged for a closer look

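The change with irradiation differed between CD11c+CD11b- and CD11c+CD11b+ cells in 219 genes, and between CD11c+CD11b- and CD11c-CD11b+ cells in 2, by edgeR's test of the population by irradiation term with the pool as a block. The causes were not tested.

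Against CD11c+CD11b+ cells, the log2 fold change in CD11c+CD11b- cells was the more positive by 5.28 for Sept3, 4.18 for Cd24a, 4.16 for Bcl11a, 4.09 for Smim5 and 3.86 for Btla. It was the more negative by -2.60 for Rn7s1, -2.60 for Rn7s2, -2.44 for Rn7s6 and -1.91 for Gbp6. Rn7s1, Rn7s2 and Rn7s6 are near-identical copies of the 7SL RNA, so counts cannot be placed among them with certainty. Eif3j2 had a fitted difference of -12.29, which comes from a single library at 0: it was at 0 CPM in untreated CD11c+CD11b+ cells and at 14.2 to 23.2 in the irradiated ones, while CD11c+CD11b- cells were at 16.0 to 23.6 throughout. That number depends on the fit and is no bound.

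Against CD11c-CD11b+ cells the more positive differences were 5.65 for Siglech and 5.00 for Mycl.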

How the results depend on the processing

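In CD11c+CD11b- cells 4 genes passed in the fit reported and 4 with RLE scaling, 0 with no filter on low counts (5016 at an unadjusted p under 0.05), 2694 with DESeq2, 2661 with antibody terms, which leave 1 residual degree of freedom, 1872 with all 15 myeloid libraries in 1 fit, and 0 to 3059 on leaving out 1 irradiated pool. For the difference from CD11c+CD11b+ cells, 219 became 12 with no filter, 1097 with DESeq2, 2 with no replicate block, and 47 to 684 on leaving out a pool. For that from CD11c-CD11b+ cells, 2 became 0 with no filter, 484 with DESeq2, 0 with no replicate block, and 0 to 106 on leaving out a pool. The 176 genes at least 2-fold higher became 443 at a limit of 1 CPM and 54 at 50 CPM, and 178 to 505 on leaving out a pool. The 611 lower ones became 1130 and 249 at these limits, and 614 to 858 on leaving out a pool. None of the named genes past the limit changed direction under these alternatives. The causes of the moved counts were not tested, apart from fewer or more genes entering at another CPM limit or with no filter. The single untreated library limits every comparison: its own pool and the absence of radiation cannot be told apart, and neither depth nor scaling changes that.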
